A study of Mus musculus with 2 samples.

Results

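Glycolysis, the pentose phosphate pathway and the tricarboxylic acid (TCA) cycle were followed gene by gene in cells labelled as leukaemic stem cells, taken from the bone marrow of mice. The members were 40 genes chosen by name, in pathway order: 23 of glycolysis with glucose and lactate transport, 7 of the pentose phosphate pathway, and 10 of the TCA cycle with its entry enzyme. The array annotation named at least 1 probe for 36 of them, among 19057 genes with a named probe in all. Hk2, Gpi1, Eno1 and G6pdx had no named probe and were not analysed here. Of the 36, 32 were above background on at least 1 array and 30 on both, which means a detection p-value below 0.01.

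Total RNA of 2 samples was hybridised to Illumina bead arrays, 1 array per sample. The tested sample was labelled PirBTM MLL-AF9 and its control wild type MLL-AF9. Both were on the C57BL/6J background, at 9 weeks of age, and both carried MLL-AF9, a fusion oncogene that drives acute myeloid leukaemia, so the controls are leukaemic too. Pirb encodes an inhibitory immunoglobulin-like receptor of myeloid and B cells. The sources used here do not state the exact change in the PirBTM allele, the number of animals behind each sample or how the cells were sorted. No probe was named Pirb, so the genotype could not be checked on the arrays.

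Glycolysis turns glucose into pyruvate in the cytosol. Its first part spends ATP to take up and phosphorylate the sugar, and the part from triose phosphates onward pays ATP and NADH back; lactate dehydrogenase then recycles the NADH. The pentose phosphate pathway branches off at glucose 6-phosphate and supplies NADPH and ribose, which growing blood cells use for reduction and nucleotides. The TCA cycle oxidises acetyl units in mitochondria, and blood stem cells of the marrow are known for leaning on glycolysis more than their descendants do.

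With 1 array in each group, replicate spread is unknown, and no difference below was tested or has a p-value. Values are log2 intensities after background correction and quantile normalization, and differences are log2 ratios, PirBTM minus wild type. The measuring error of 1 probe's log2 ratio came from 2944 pairs of probes of the same gene, all of them over background on each array. The SD of this error was 0.30, with 0.24 among the 981 brightest pairs and 0.33 among the 981 dimmest. Below, the measuring SD is the 0.30 of all pairs. This error covers the probes only and leaves out the variation between animals and RNA preparations. In bulk RNA, fewer cells of a type and less RNA per cell cannot be told apart. Apart from summed marker levels and a count of members among the brightest genes, a level is not set against that of another gene, since probes differ in brightness.

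Markers of other marrow cells differed between the same arrays. All 10 erythroid markers above background were at least 2-fold higher in PirBTM, as were all 10 of macrophages and monocytes, 5 of 10 of neutrophils, 6 of 7 of B cells, 5 of 6 of T and NK cells, 6 of 7 of megakaryocytes and 2 of 6 of stroma and endothelium. Their summed normalized intensities were 113188 in PirBTM and 27223 in wild type for erythroid cells, 58001 and 6558 for macrophages, 272488 and 140897 for neutrophils, 8606 and 1823 for B cells, 6734 and 3256 for T and NK cells, 3656 and 616 for megakaryocytes, and 22610 and 1040 for stroma, in the same order. On the wild-type array 5 of the 10 erythroid markers, 1 of 7 B cell markers and 2 of 6 T and NK markers were above background. So were 8 of 10 markers of macrophages, 9 of 10 of neutrophils, 4 of 7 of megakaryocytes and 3 of 6 of stroma. Pax5, Cd4, Cd8a, Klrb1c, Marco, Mmp8, Col1a2, Lepr and Kdr were above background on neither array. Of 8 markers of leukaemic stem and progenitor cells, 7 were above background in wild type and 4 in PirBTM. At least 2-fold lower in PirBTM were 5, among them Hoxa9 and Meis1, beside 9.67% of all genes. Kit was bright on both arrays (11.01 in PirBTM and 11.72 in wild type). Mature-cell markers also read high on the wild-type array, such as S100a8 (15.07 in PirBTM and 15.22 in wild type) and Hba-a1 (15.37 and 13.66). Both arrays thus go partly against their cell type label, PirBTM by more markers. Some of the 2-fold calls of markers depend on the processing. In the authors' deposited values, Ccr2, Ms4a1, Cd3e, Cd3g, Gp9, Gp1bb, Hoxa10 and Cd34 fell short of 2-fold, while Ngp reached it. The lists were chosen with earlier results of these data known, and the part of these cell types in the values of the metabolic genes was not tested.

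The larger differences sat at particular steps. The glucose transporter Slc2a3 was 6.14-fold and the phosphofructokinase regulator Pfkfb4 3.43-fold higher in PirBTM. Enzymes from aldolase to pyruvate kinase were lower: Pgam1 was 2.42-fold lower and Tpi1 2.04-fold lower. The 5 pentose phosphate members above background had log2 ratios between -1.72 and -0.22, and the TCA members stayed within 2-fold. At the 2-fold mark, 2 of 32 members (6.25%) were higher, against 12.8% of the 9432 genes above background on at least 1 array. Lower by that much were 4 of 32 members (12.5%), against 9.67% of all genes. At 1.5-fold, 4 members (12.5%) were higher, against 19.6% of all genes, and 10 (31.25%, of 32) were lower, against 25.5%. The shares of lower members lie close to those of all genes and are thus no result about the pathways as a whole; what follows concerns the single steps. Of the 30 members above background on both arrays, 17 were lower and 7 higher by more than 1 measuring SD, and 6 lay within it; of the 7858 genes above background on both arrays, 45.6% were lower and 23.8% higher by that much. Sign counts below are to be read against all 9432 genes, of which 57.5% had a log2 ratio below 0 and 42.4% above.

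**Figure D1:**
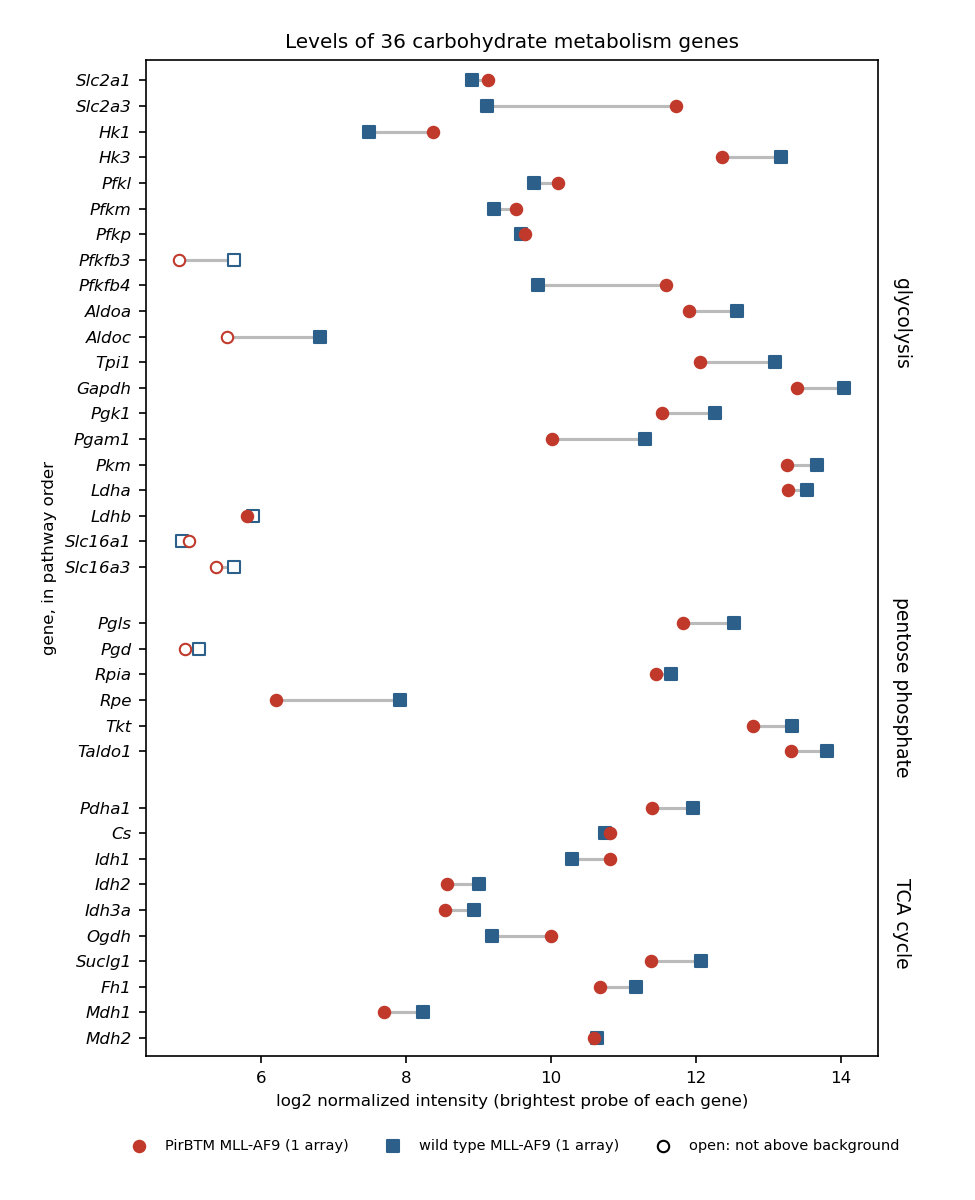
Log2 normalized intensity (horizontal axis) of the brightest probe of each of 36 genes (vertical axis, in pathway order) on the PirBTM array (red circles) and the wild-type array (blue squares). Open marks are not above background. Slc2a3 and Pfkfb4 have the widest gaps to the right, and Rpe, Pgam1 and Tpi1 lie to the left in PirBTM.

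At the uptake of glucose, the probe of Slc2a3 read 11.73 in PirBTM and 9.11 in wild type. Slc2a3 encodes the high-affinity transporter GLUT3. Its log2 ratio of 2.62 ranged from 2.37 to 2.86 over the processing settings tried. The other glucose transporter of the list, Slc2a1 (GLUT1), read 9.13 in PirBTM and 8.91 in wild type. That log2 ratio of 0.22 is smaller than the measuring SD. The 2 transporters thus differed in their ratios by 2.40, or 2.20 to 2.41 over the settings, against an SD of 0.42 for the difference between a pair of probes.

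Hexokinases trap glucose in the cell by phosphorylating it. Hk1, the widely expressed form, read 8.37 in PirBTM and 7.49 in wild type by its brightest probe, a 1.84-fold higher level. Its second probe read 6.96 and 6.99, so the probes of Hk1 disagree and its ratio is uncertain (0.43 with the mean of both). Hk3, a hexokinase of myeloid cells, read 12.36 in PirBTM and 13.18 in wild type, 1.77-fold lower. Hk1 and Hk3 therefore pointed in opposite directions by their brightest probes, with ratios 1.71 apart.

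Phosphofructokinase commits the sugar to glycolysis, and its 3 subunit genes differed little. Pfkl read 10.10 in PirBTM and 9.77 in wild type, but its second probe had a log2 ratio of -0.39 beside 0.34. Pfkm read 9.52 and 9.21, with log2 ratios of 0.31 and 0.23 by its probes above background. Pfkp read 9.64 and 9.58 in the same order, a ratio of 0.06. The ratios of Pfkl and Pfkm exceeded the measuring SD of 0.30 by little, and that of Pfkp lay within it.

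Pfkfb enzymes make and break fructose 2,6-bisphosphate, the strongest activator of phosphofructokinase. Pfkfb4 read 11.59 in PirBTM and 9.82 in wild type. Its log2 ratio of 1.78 ranged from 1.53 to 2.0 over the settings. A second probe had a ratio of 1.28 but was above background in PirBTM alone (7.21, against 5.93 in wild type, detection p-value 0.0107). Pfkfb3, the form best known as an inducible driver of glycolysis, was above background on neither array, with detection p-values of 0.191 in PirBTM and 0.0353 in wild type. Of Pfkfb3 and Pfkfb4, only Pfkfb4 could therefore be compared. Pfkfb2, of the same family but outside the members, read 6.48 in PirBTM and 7.14 in wild type. Its log2 ratio of -0.67 was opposite in sign to that of Pfkfb4, and was -0.18 with the mean of all probes.

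From aldolase onward the direction was the other. Of the 9 genes from aldolase to lactate dehydrogenase with a named probe, all had a log2 ratio below 0, beside 57.5% of all genes, with a median of -0.67. Of the 8 genes from glucose transport to phosphofructokinase above background, 7 were above 0, beside 42.4% of all genes, with a median of 0.32; the exception was Hk3. This split was made after the values were seen, along the textbook order of steps. Over the settings that change the values, all 7 lower-part genes above background on both arrays stayed below the median of all genes. Below 0 they numbered 7 as well, or 6 after cyclic loess, where Ldha had a ratio of 0.05. Ldhb, above background in PirBTM alone, reached 0.17 at its highest setting. The upper part had 7 of 8 genes above 0, or 5 of 8 where probes of a gene were averaged.

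Aldoa, the widely expressed aldolase, read 11.90 in PirBTM and 12.57 in wild type, 1.59-fold lower. Aldoc, the brain form, was above background on the wild-type array alone (6.81, against 5.53 in PirBTM with a detection p-value of 0.0224). It was at least 2.21-fold lower in PirBTM, counted to the lowest value above background on that array, 5.67. Without background correction its ratio shrank to -0.47, which shows how near the background it lay. Tpi1, triosephosphate isomerase, read 12.06 in PirBTM and 13.09 in wild type. Its further probes gave log2 ratios of -0.70 and -0.23 beside -1.03, all below 0. Tpi1 lay at the 2-fold mark: its log2 ratio fell just short of it in the authors' deposited table, and was -0.76 after cyclic loess and -0.65 with averaged probes.

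Gapdh, the dehydrogenase that makes the first NADH, read 13.40 in PirBTM and 14.05 in wild type, 1.57-fold lower, with a range of -0.75 to -0.36 for its log2 ratio. Gapdh is often used as a reference gene and lay 0.50 below the median of all genes here. Pgk1, which makes the first ATP, read 11.53 in PirBTM and 12.26 in wild type, 1.65-fold lower. Pgam1, phosphoglycerate mutase, read 10.02 in PirBTM and 11.30 in wild type. It was the lowest of the bright glycolytic genes, with log2 ratios of -1.28 and -1.18 by its probes, and stayed at least 2-fold lower in all 8 settings that change the values. Gapdh and other glycolytic genes have processed copies in the mouse genome, and signal shared with such copies was not measured.

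At the end of the pathway the differences shrank. Pkm, pyruvate kinase, read 13.26 in PirBTM and 13.67 in wild type, a log2 ratio of -0.41 that became -0.08 after cyclic loess. Ldha, the lactate-forming subunit, read 13.27 and 13.53 in the same order, a ratio of -0.26 within the measuring SD. Ldhb, the subunit of tissues that use lactate, was dim (5.80 in PirBTM and 5.89 in wild type) and passed the background call in PirBTM alone, with detection p-values of 0.00321 in PirBTM and 0.0128 in wild type. The lactate transporters Slc16a1 (MCT1) and Slc16a3 (MCT4) were above background on neither array, by 1 and 3 probes, so lactate export was not measurable here.

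**Figure D2:**
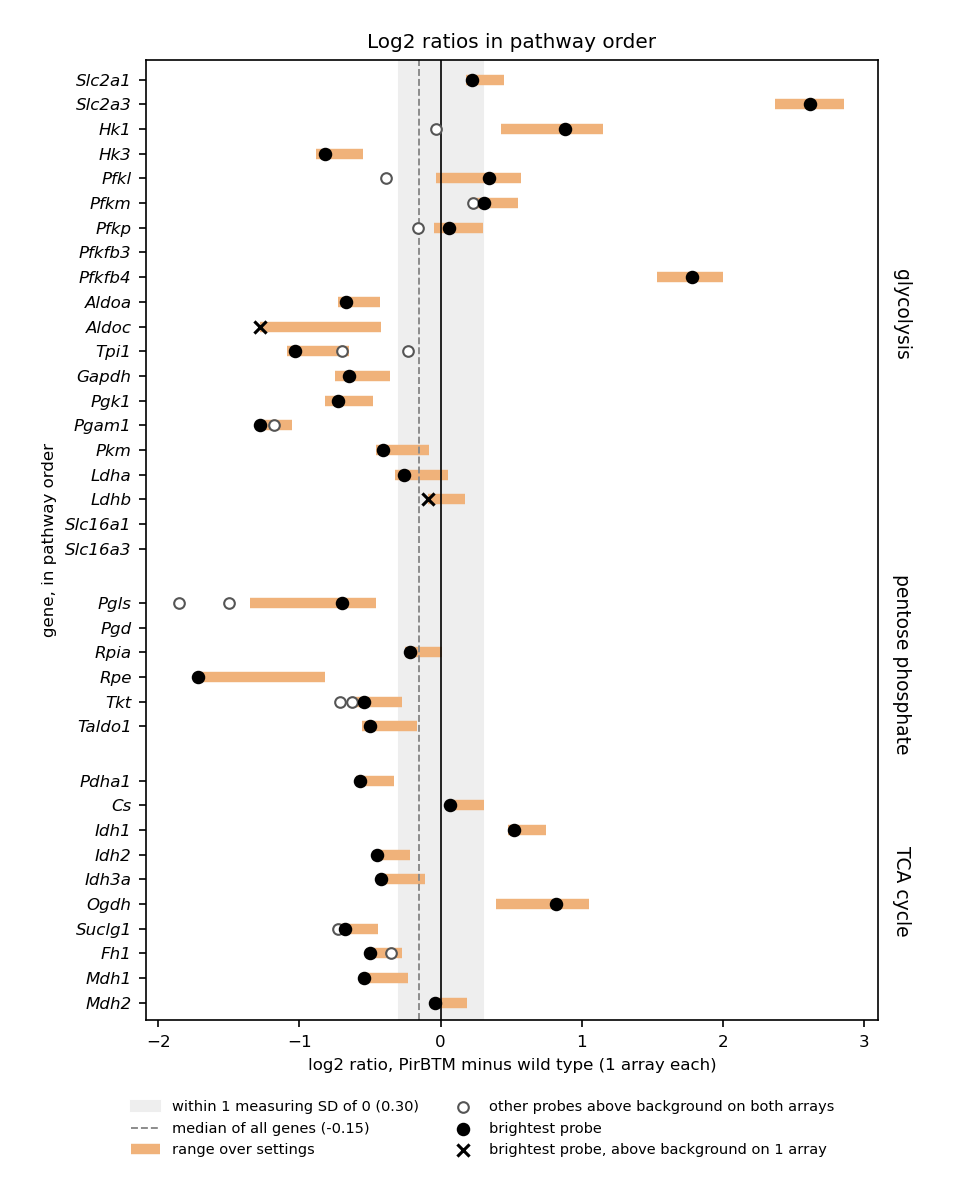
Log2 ratio, PirBTM minus wild type (horizontal axis), of the members above background on at least 1 array (vertical axis, in pathway order; rows with no mark were not above background). Filled circles are the brightest probe, crosses genes above background on 1 array, open circles further probes above background on each array, orange bars the range over settings; the grey band is 1 measuring SD of 0.30 and the dashed line the median of all genes, -0.15. Slc2a3 (2.62) and Pfkfb4 (1.78) stand to the right, and the genes from Aldoa to Ldhb lie left of 0.

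The promoters of 4 glycolytic genes, 1 higher and 3 lower in PirBTM, are shown as examples with and without the motif counted below. They were picked after the values were seen, and genes with differences as large, such as Hk3, whose window holds the motif, and Aldoc, whose windows do not, are not printed. They are RefSeq sequences of build GRCm38.p6, the 250 bases before the annotated start, read 5′ to 3′ on the gene's strand. Capitals mark ACGTG or its complement CACGT, 1 form of the core that hypoxia-inducible factor binds. The other form, GCGTG, was neither marked nor counted. Where ACGTG and CACGT overlap they form CACGTG, an E-box of the kind bound by MYC.
Pfkfb4 (chr9:108991652-108991901, plus strand): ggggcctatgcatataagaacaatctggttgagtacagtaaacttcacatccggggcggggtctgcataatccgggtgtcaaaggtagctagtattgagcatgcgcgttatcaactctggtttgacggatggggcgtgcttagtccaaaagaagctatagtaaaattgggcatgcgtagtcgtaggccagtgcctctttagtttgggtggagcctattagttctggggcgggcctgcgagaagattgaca
Pgam1 (chr19:41911621-41911870, plus strand): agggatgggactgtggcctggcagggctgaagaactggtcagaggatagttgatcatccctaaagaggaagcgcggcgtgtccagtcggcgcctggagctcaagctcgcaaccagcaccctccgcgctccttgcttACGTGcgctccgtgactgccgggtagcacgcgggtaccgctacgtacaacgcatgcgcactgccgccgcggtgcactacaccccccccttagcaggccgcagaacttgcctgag
Pgk1 (chrX:106186850-106187099, plus strand): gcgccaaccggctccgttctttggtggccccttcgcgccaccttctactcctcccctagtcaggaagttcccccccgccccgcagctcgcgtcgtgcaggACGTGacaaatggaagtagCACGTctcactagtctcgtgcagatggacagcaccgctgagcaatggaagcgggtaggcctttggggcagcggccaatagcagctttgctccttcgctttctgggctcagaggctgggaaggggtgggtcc
Tpi1 (chr6:124814159-124814408, minus strand): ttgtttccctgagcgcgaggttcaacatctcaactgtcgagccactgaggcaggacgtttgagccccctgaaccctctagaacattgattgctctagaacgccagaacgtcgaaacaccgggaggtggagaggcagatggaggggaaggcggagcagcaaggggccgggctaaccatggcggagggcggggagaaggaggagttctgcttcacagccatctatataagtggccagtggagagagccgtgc
Counted from the start, Pgk1 held ACGTG or its complement at -150 and -131, and Pgam1 at -114. The windows of Pfkfb4 and Tpi1 held no ACGTG. Those of Pfkfb4 and Pgam1 hold the uncounted GCGTG.

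Among all members, 38 of 40 had such a window and Slc2a3 and Idh3a had none. ACGTG, on either strand, was in at least 1 window of 12 of 22 glycolytic genes (54.5%), of 0 of 7 pentose phosphate genes and of 2 of 9 TCA genes (22.2%). Of all 27025 genes with a window, 18.5% held it, and genes with several annotated starts have more chances. The full CACGTG was in 4 of the 22 glycolytic genes (18.2%), against 6.86% of all genes. Over the 3 pathways together, 3 of 9 members with a ratio above 0 held ACGTG (33.3%), and 7 of 21 below 0 (33.3%). The pentose phosphate genes, with 0 of 7, add only to the second group. Slc2a3 is in neither, and the directions were not counted within each pathway. These matches describe letters in a window and not binding.

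Of the pentose phosphate genes, all 5 above background had log2 ratios below 0, beside 57.5% of all genes, with a median of -0.54 and of -0.39 relative to all genes. Of these 5, 4 were lower by more than the measuring SD. Its oxidative arm makes NADPH. There Pgls, the lactonase, read 11.83 in PirBTM and 12.53 in wild type, 1.62-fold lower by its brightest probe. Its other probes gave log2 ratios of -1.5 and -1.85, both from values near background in PirBTM (6.06 and 5.81). The mean over its probes was -1.35, so the size of the difference in Pgls is uncertain. Pgd, the second NADPH-forming enzyme, was above background on neither array, and with G6pdx not analysed the arm rests on Pgls.

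In the non-oxidative arm, which interconverts pentoses and glycolytic sugars, the picture was uneven. Rpe, the pentose epimerase, had the lowest ratio of all members: it read 6.20 in PirBTM and 7.91 in wild type, 3.29-fold lower. The probe lay near background in PirBTM, and the log2 ratio of -1.72 became -0.84 in the authors' deposited values and -0.88 without background correction. A second probe of Rpe was at background on both arrays (ratio 0.07), and the mean of all probes gave -0.82. Rpia, the isomerase at the same branch point, read 11.45 in PirBTM and 11.66 in wild type, a ratio of -0.22 within the measuring SD that became 0.01 after cyclic loess.

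Tkt, transketolase, read 12.79 in PirBTM and 13.33 in wild type, 1.45-fold lower. Its further probes above background agreed in sign with log2 ratios of -0.63 and -0.71 beside -0.54. Taldo1, transaldolase, read 13.31 in PirBTM and 13.81 in wild type, 1.42-fold lower, and its ratio of -0.50 became -0.17 after cyclic loess. Against the median of all genes, Tkt lay 0.39 and Taldo1 0.35 lower.

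In the TCA cycle, 0 of 10 members passed 2-fold in either direction, and the median was -0.43. Ratios were below 0 in 7 of the 10, a share near the 57.5% of all genes. Pdha1, the pyruvate dehydrogenase subunit at the entry, read 11.40 in PirBTM and 11.96 in wild type, 1.48-fold lower. Cs, citrate synthase, which condenses acetyl-CoA with oxaloacetate, read 10.81 and 10.74 in the same order, a ratio of 0.07.

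The isocitrate dehydrogenases did not move together. Idh1, the cytosolic NADP-dependent enzyme, read 10.81 in PirBTM and 10.29 in wild type, 1.44-fold higher. Idh2, its mitochondrial counterpart, read 8.56 in PirBTM and 9.01 in wild type, a ratio of -0.45. Idh3a, a subunit of the NAD-dependent enzyme of the cycle proper, read 8.53 in PirBTM and 8.94 in wild type, a ratio of -0.42. A second probe of Idh3a was above background on neither array, and the mean of all its probes gave -0.11. The ratios of Idh1 and Idh2 were 0.97 apart, and 0.83 to 0.97 over the settings, more than the SD of 0.42 for a pair of probes.

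Ogdh, the 2-oxoglutarate dehydrogenase that follows, was higher, with deposited intensities of 1263 in PirBTM and 640.4 in wild type, 1.76-fold after normalization. Its second probe lay at background on both arrays, and averaging both gave a ratio of 0.39. The next step went the other way: Suclg1, a subunit of succinyl-CoA ligase, read 11.38 in PirBTM and 12.07 in wild type, with log2 ratios of -0.68 and -0.73 by its bright probes. The ratios of Ogdh and Suclg1 were 1.5 apart, and 0.97 to 1.63 over the settings.

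Fh1, fumarase, read 10.68 in PirBTM and 11.18 in wild type, with a log2 ratio of -0.50, and -0.35 by its dim probe. Of the malate dehydrogenases, the cytosolic Mdh1 read 7.69 in PirBTM and 8.23 in wild type, a ratio of -0.54. Further probes of Mdh1 were above background on neither array, and the mean of all its probes gave -0.23. The mitochondrial Mdh2 read 10.60 and 10.64 in the same order, a ratio of -0.04. The difference, Mdh1 minus Mdh2, was -0.50 and ranged from -0.50 to -0.19 over the settings, against the SD of 0.42 for a pair of probes.

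Where a member had at least 2 probes above background on both arrays, as 10 members did, 10 of the 13 further probes had the sign of the brightest one. The 3 that did not were in Hk1, Pfkl and Pfkp, all in the upper part of glycolysis. The members were bright: 20 of the 32 lay among the 2358 brightest genes, whose median log2 ratio was -0.20, beside -0.15 for all genes.

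Other genes of the same pathways were read from longer lists. Of 13 further glycolytic and neighbouring genes above background, 9 had ratios below 0, beside 57.5% of all genes, with a median of -0.53; 3 were at least 2-fold higher and 1 lower. The highest were Slc2a6, a hexose transporter of the same family as GLUT3 (3.20-fold), Ldhc, the germ cell lactate dehydrogenase (at least 2.87-fold, not above background in wild type), and Minpp1, an inositol phosphate phosphatase also described to act on 2,3-bisphosphoglycerate (2.34-fold, near background in wild type). The calls of both depend on the processing: the log2 ratio of Ldhc ranged from 0.80 to 2.31 and that of Minpp1 from 0.49 to 1.51, and neither passed 2-fold with the mean of all probes, in the authors' deposited table or with background left in. The lowest was Slc2a9, a urate transporter of the glucose transporter family, 5.28-fold lower, near background in PirBTM, with a range of -2.40 to -0.97 for its log2 ratio; the mean of all probes gave the -0.97, short of 2-fold. It was followed by G6pc3, a glucose 6-phosphatase needed by neutrophils, and Slc2a8 (log2 ratios of -0.76 each).

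All 6 further pentose phosphate genes above background had ratios below 0, beside 57.5% of all genes, with a median of -0.57 and 0 past 2-fold. The lowest were Dera, a deoxyribose phosphate aldolase (at least 1.94-fold lower), Rbks, ribokinase (log2 ratio -0.83), and Prps1, which makes phosphoribosyl pyrophosphate for nucleotide synthesis (-0.76). As a log2 ratio the bound of Dera was -0.95 in the setting reported and -0.31 in the authors' deposited values. The highest were H6pd (-0.12), Prps2 (-0.19) and Prps1l3 (-0.37), and the ratios of H6pd and Prps2 became 0.11 after cyclic loess, and that of Prps2 became 0.09 after median scaling.

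Of 18 further TCA and pyruvate genes above background, 13 had ratios below 0, beside 57.5% of all genes, none passed 2-fold, and the median of -0.15 equalled that of all genes. The lowest were Suclg2, the partner subunit of Suclg1 (-0.75), and the succinate dehydrogenase subunits Sdhd (-0.67) and Sdhc (-0.66). The highest were Aco1, cytosolic aconitase (at least 1.55-fold), Glud1, glutamate dehydrogenase, which feeds 2-oxoglutarate into the cycle (log2 ratio 0.53), and Got2, the mitochondrial aspartate aminotransferase (0.21, or -0.10 at the lowest setting). As a log2 ratio the bound of Aco1 was 0.63 in the setting reported and 0.21 in the authors' deposited values.

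Among 11 regulators of glycolysis above background, 8 had ratios above 0, beside 42.4% of all genes, with a median of 0.32. Of the 11, 9 were above background on both arrays, and some of the 8 lay within the measuring SD. The list mixes genes of opposite action, so this count gives no direction for glycolysis. Ppargc1b, a coactivator of mitochondrial genes, was 4.82-fold higher, although its wild-type value (6.16) lay near background. Txnip, which restrains glucose uptake, read 13.12 in PirBTM and 12.24 in wild type, 1.84-fold higher. Epas1 (HIF-2α) was at least 1.37-fold higher in the setting reported, not above background in wild type. As a log2 ratio this bound of 0.45 became 0.15 in the authors' deposited values and 0 with the mean of all probes. The lowest were Egln2, an oxygen-sensing prolyl hydroxylase (-0.60), Hif1a (-0.45, and -1.03 at the lowest setting) and Prkaa1, a catalytic subunit of AMP-activated kinase (-0.27).

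**Figure D3:**
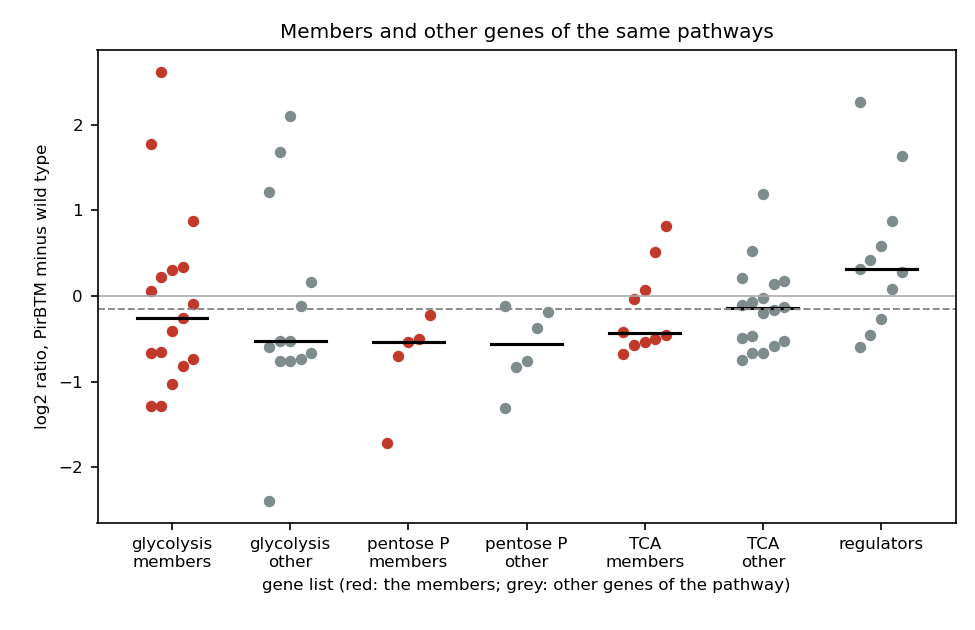
Log2 ratio, PirBTM minus wild type (vertical axis), of the members (red) and of other genes of each pathway and of regulators (grey) above background on at least 1 array; horizontal bars are medians and the dashed line is the median of all genes. In the setting reported, every gene of the pentose phosphate lists lies below 0, with medians of -0.54 for the members and -0.57 for the others.

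The median of all genes was -0.15, and 0.10 after cyclic loess or -0.02 after median scaling. Relative to that median, glycolysis lay at -0.10, pentose phosphate at -0.39 and the TCA cycle at -0.28. Over the settings these ranged from -0.30 to -0.03 for glycolysis, -0.60 to -0.32 for pentose phosphate and -0.39 to -0.01 for the TCA cycle. All 3 pathway medians lay below that of all genes in every setting run, the pentose phosphate one by the most. Of the 2-fold calls over all genes, 57.0% were upward, against 67.3% in the authors' deposited values, 68.3% with background left in, 69.4% with median scaling and 75.7% with cyclic loess.

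**Figure D4:**
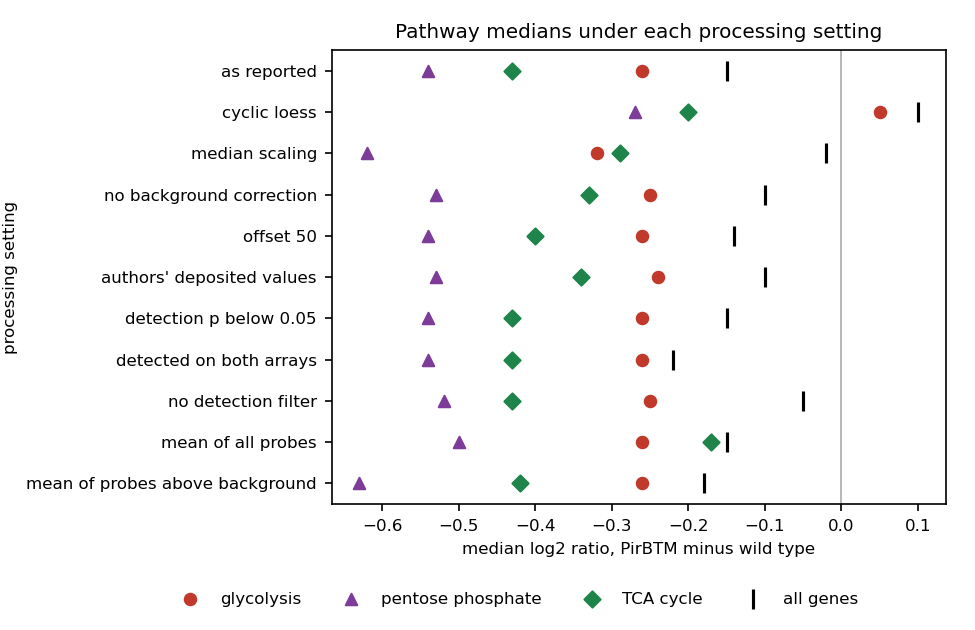
Median log2 ratio, PirBTM minus wild type (horizontal axis), of glycolysis, pentose phosphate and TCA members and of all genes, under each processing setting (vertical axis). All 4 medians lie further to the right under cyclic loess than in the reported setting, and the pentose phosphate median keeps the lowest place in all 11 settings.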

How the data were processed

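Expression was measured on 1 Illumina bead array for PirBTM MLL-AF9 and 1 for wild type MLL-AF9. The labels' descriptions share a number and differ in the letter after it. What number and letter stand for is not stated, and anything that goes with the letter cannot be told apart from genotype. Per the file headers, the authors deposited, for 45281 probes, a mean intensity with its detection p-value. The intensities are linear and not normalized between arrays (medians 161 for PirBTM and 148 for wild type). A second deposited table holds linear intensities that rank the probes identically and whose sorted columns differ from each other by at most 0.16%; it was used as an alternative. The sources used here name no scanner software.

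Background was corrected with limma 3.58.1 in R 4.3.3 (nec, offset 16, with the background recovered through the detection p-values: mean 147 and SD 14.0 for PirBTM, 139 and 11.6 for wild type). The log2 values were quantile normalized. The background call was a detection p-value under 0.01, which 36.2% of PirBTM and 33.4% of wild-type probes passed. Precision is limited by the number of arrays. A gene was its brightest probe over both arrays. A gene above background on 1 array has a bound, taken to its dim value or, if higher, to that array's lowest value passing the call. The annotation named 1 gene for 34885 probes, several for 18 and none here for 10378; all 65 member probes matched RefSeq by gene identifier and 0 symbols changed. The steps were tested on simulated data with known ratios. These ratios were set as often up as down, so that test does not show how the normalization handles uneven changes.

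All 40 members are named, and of other pathway genes the 3 highest and 3 lowest of each list at most, besides Pfkfb2. The members and lists were chosen with earlier results of these data known. With 1 array per group no test was made.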

Additional observations from a re-analysis of the deposited data

How the results depend on the processing

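The 3 pathway medians, the counts of members past 2-fold and the ratio of each member were recomputed under 10 alternatives. The glycolysis median moved to 0.05 after cyclic loess; under the other alternatives the 3 medians stayed below 0, as did those of pentose phosphate and the TCA cycle after cyclic loess. The 2 members at least 2-fold higher became 4 after cyclic loess, with Hk1 and Ogdh added, and 4 at a 1.5-fold mark. The 4 members at least 2-fold lower became 2 after cyclic loess, 2 without background correction, 2 with the mean of all probes (Pgam1 and Pgls) and 1 in the authors' deposited values, and 10 at a 1.5-fold mark. Slc2a3, Pfkfb4 and Pgam1 kept their calls in all 8 settings that change the values; Rpe kept it in 5, Tpi1 in 4 and Aldoc in 2, while Pgls passed 2-fold in the 2 settings that average probes. None of the 6 members past 2-fold changed sign in these settings. The causes of these shifts were not tested. No paired analysis was possible because each group has 1 array, and for the same reason no array could be left out. Signal over background limits Aldoc, Ldhb and Rpe, and a difference in Pfkfb3, Slc16a1, Slc16a3 or Pgd was not detectable.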
